A study of Mus musculus with 5 samples.

Results

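The genes described here encode the subunits of the standard 26S proteasome, measured as messenger RNA in mouse heart. They were chosen by name: every gene of the deposited table called Psma, Psmb, Psmc or Psmd followed by a number, except the immune-inducible Psmb8 and Psmb9, with at least 10 counts summed over the 5 libraries. This gave 36 of 17228 genes, of which 8 are Psma genes, 8 Psmb, 6 Psmc and 14 Psmd. Not every member is a constitutive subunit: Psmb10 is an inducible catalytic subunit, Psma8 is a testis paralogue of Psma7, and Psmd5, Psmd9 and Psmd10 are assembly chaperones of the regulatory particle. The other 31 genes encode structural subunits. The member with the lowest summed count was Psma8 with 40, and the nearest gene outside the count limit was Psmb11, the thymus subunit, with 5.

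Hearts of both genotypes were taken at 6 months of age: there were 2 WT libraries (female and male) and 3 db/db libraries (1 male, with females 1 and 2). The WT mice are labelled C57BL and non-diabetic, and the db/db mice carry the genotype label KsJ-Lepr db/Lepr db and are labelled diabetic, with the strain again given as C57BL. No treatment is named for either group, and the KsJ background is named for db/db only, so genotype and background cannot be told apart. The db allele is a splicing mutation that removes the signalling form of the leptin receptor in every cell, so the heart of these obese, diabetic mice is exposed to a changed whole-body metabolism. The growth protocol speaks of male mice although 3 libraries are labelled female. Whether the libraries stem from separate animals is not labelled, and p-values therefore cover only the spread between libraries, which may be technical.

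The proteasome is the cell's main machine for destroying proteins tagged with ubiquitin. Its 20S core is a barrel of stacked rings: outer alpha rings (Psma), which form the gate, and inner beta rings (Psmb), in which Psmb5, Psmb6 and Psmb7 carry the chymotrypsin-like, caspase-like and trypsin-like cutting sites. The 19S regulatory particle caps the barrel with a ring of ATPases (Psmc), which unfold substrates, and non-ATPase subunits (Psmd), which bind and remove ubiquitin. In heart muscle it removes damaged and surplus sarcomere proteins. In mammalian cells, the transcription factor NRF1 (gene Nfe2l1) binds antioxidant response elements with a small MAF partner and raises transcription of proteasome genes together when proteasome activity falls short.

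Promoter sequence was available from RefSeq (GRCm38.p6, 250 bases before to 50 bases after the gene start) for 29 of the 36 genes. The 5 promoters with the core of the element bound by NRF1 and MAF, TGACNNNGC on either strand, are shown here because NRF1 is the factor known to raise these genes together. The capitals mark this core; in Psmc6 and Psmd12 it lies on the strand opposite to the gene and is therefore read as its reverse complement. All sequences are written 5′ to 3′ on the gene's own strand.
Psmb5 promoter, chr14:54618009-54618067, minus strand: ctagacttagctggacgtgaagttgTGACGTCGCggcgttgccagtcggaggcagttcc
Psmb6 promoter, chr11:70525323-70525381, plus strand: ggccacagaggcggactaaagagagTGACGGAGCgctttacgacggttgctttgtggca
Psmd9 promoter, chr5:123228134-123228192, plus strand: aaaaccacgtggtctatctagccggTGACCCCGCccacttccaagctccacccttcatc
Psmc6 promoter, chr14:45329574-45329630, plus strand: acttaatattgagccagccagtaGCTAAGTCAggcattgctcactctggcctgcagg
Psmd12 promoter, chr11:107479278-107479314, plus strand: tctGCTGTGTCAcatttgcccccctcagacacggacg
These 5 genes were 17.2% of the 29 promoters, against 14% of all 27025 genes with a promoter and 17.1% of the 10002 tested genes with one. Counted from the gene start, the core began at position -9 in Psmb6, -31 in Psmd9 and -47 in Psmb5, and far from the start, at -227 and -247, in Psmc6 and Psmd12. The ETS core CCGGAAG was in 10 of the 29 promoters, which is 34.5%, against 9.93% of all promoters and 19.7% of those of tested genes. One of these 10 was Psmd4, shown here because this gene had the highest fold change described further on.
Psmd4 promoter, chr3:95042708-95042764, minus strand: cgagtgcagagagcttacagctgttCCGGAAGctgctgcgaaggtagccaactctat
The CCAAT box was in 11 of the 29, which is 37.9%, against 41.1% of all promoters and 42.7% of those of tested genes. No such core overlapped a match of the other motifs in these promoters. A match describes letters only, and a promoter with none may still be bound.

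All 31 structural subunits were expressed in every heart, at unequal levels. On the per-length FPKM scale the mean over the 5 libraries had a median of 86.6 over the 36 genes. The beta ring was highest, with a median of 212 FPKM, and Psmb3, a non-catalytic beta subunit, had the highest level of all at 255 ± 14.4 FPKM (SD, n = 5). The alpha ring had a median of 99.0 FPKM, the ATPase ring 87.9 FPKM and the non-ATPase group 53.8 FPKM. The lowest structural subunit was Psmd14, the lid enzyme that cuts ubiquitin off arriving substrates, at 25.1 ± 3.38 FPKM (SD, n = 5).

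The chaperones stood below every structural subunit. Psmd10 was at 5.88 ± 0.877 FPKM, Psmd5 at 7.21 ± 1.93 FPKM and Psmd9 at 10.3 ± 0.953 FPKM (SD, n = 5 each). Psma8 was at 0.548 ± 0.310 FPKM, with counts of 13 and 9 in the WT female and male and of 1, 11 and 6 in the db/db females and male. It did not pass the filter on low counts, so 35 of the 36 genes were tested. The mean FPKM of the 14 structural core genes was 1.94 and 2.11 times that of the 17 structural regulatory genes in the WT female and male, and 2.11, 2.17 and 2.17 times in the db/db libraries. The groups met at 2.11 (exact permutation test over the 10 splits, two-sided p = 0.2, smallest possible 0.1).

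**Figure D1:**
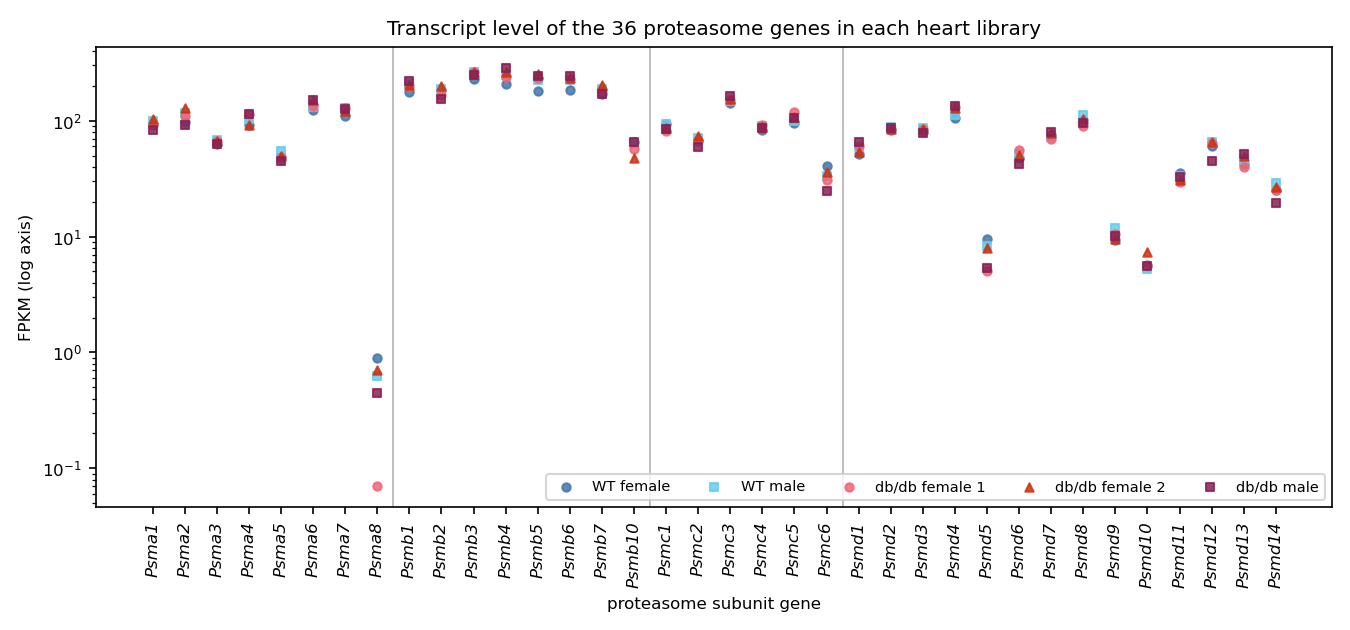
FPKM on a log axis for each of the 36 genes, one point per library, with grey lines between the Psma, Psmb, Psmc and Psmd genes. The beta ring sits highest, the chaperones Psmd5, Psmd9 and Psmd10 sit between 5.88 and 10.3 FPKM on average, and Psma8 is near the bottom at 0.548 FPKM.

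The libraries held 8356099 to 10381326 counts, and the 36 genes took 0.394 to 0.432% of them. The sex labels passed their check: 4 Y-linked genes had 872 and 906 counts in the males and at most 5 in the females. Lepr had 37 and 14 counts in the WT female and male against 3, 7 and 5 in the db/db libraries. A count for the whole gene does not separate the forms of the receptor, so the genotype labels were not checked by it. Ventricular muscle markers were high in every library, with summed levels of 154000 to 173000 TPM for 10 of 10 genes. The db/db male stood apart in several marker lists. Its endothelial sum was 183 TPM against 260 to 327 TPM in the other libraries, its fibroblast sum 447 TPM against 604 to 701 TPM, and its atrial sum 23.9 TPM against 6.94 to 9.51 TPM, where Sln, the atrial calcium-pump inhibitor, had 12 counts against 0 in every other library. The libraries also differed in a trend across all genes with gene length, which was most unlike between the db/db male and the female WT library. The RNA comes from whole tissue, so more cells of a type and more RNA per cell cannot be told apart.

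The first question of the design is how the diabetic heart differs from the WT heart. No proteasome gene passed the test between genotypes. In edgeR's quasi-likelihood test 0 of 35 genes had an adjusted p under 0.05, against 1.03% of all 12540 genes, and DESeq2 and limma-voom also called 0. The fold changes leaned one way: 33 of 35 were positive, that is higher in db/db, against 49% of all genes, and their median log2 fold change was 0.21 against -0.01 for all genes. When libraries were scaled by their totals, 19 of 35 were positive, and the median was 0.035 while that of all genes moved to -0.19; 33 of 35 still lay above the median of all genes. At an unadjusted p under 0.05 there were 6 genes (Psmd4, Psmc5, Psmb5, Psma6, Psmb6 and Psmb4), all higher in db/db, where 6.87% of all genes reached this. In 14 of 35 genes every db/db library lay above both WT libraries, where 15.1% of all genes did so, and in 0 did every db/db library lie below, where 16.5% of all genes did. The authors' deposited table lists 36 of these genes, of which 0 had a q under 0.05, 33 had a positive fold change, and the smallest q was 0.208, for Psmd4.

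Within each group of subunits the median was positive under TMM scaling, but with library totals those of the ATPases and the non-ATPase genes turned to -0.01 and -0.02. Under TMM the median was 0.22 for the 7 tested alpha genes, 0.27 for the 8 beta genes, 0.17 for the 6 ATPases and 0.16 for the 14 non-ATPase genes. Relative to the median of all genes, 7 of 7, 8 of 8, 5 of 6 and 13 of 14 lay higher under either scaling. The median standard error of one gene's log2 fold change was 0.15, so a typical fold change was little more than its own error. All values in the next paragraphs are TMM-scaled CPM (counts scaled to the library size) for single libraries and log2 fold changes of db/db against WT with their standard error (SE), and the adjusted p is edgeR's with Benjamini-Hochberg adjustment over all genes tested.

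**Figure D2:**
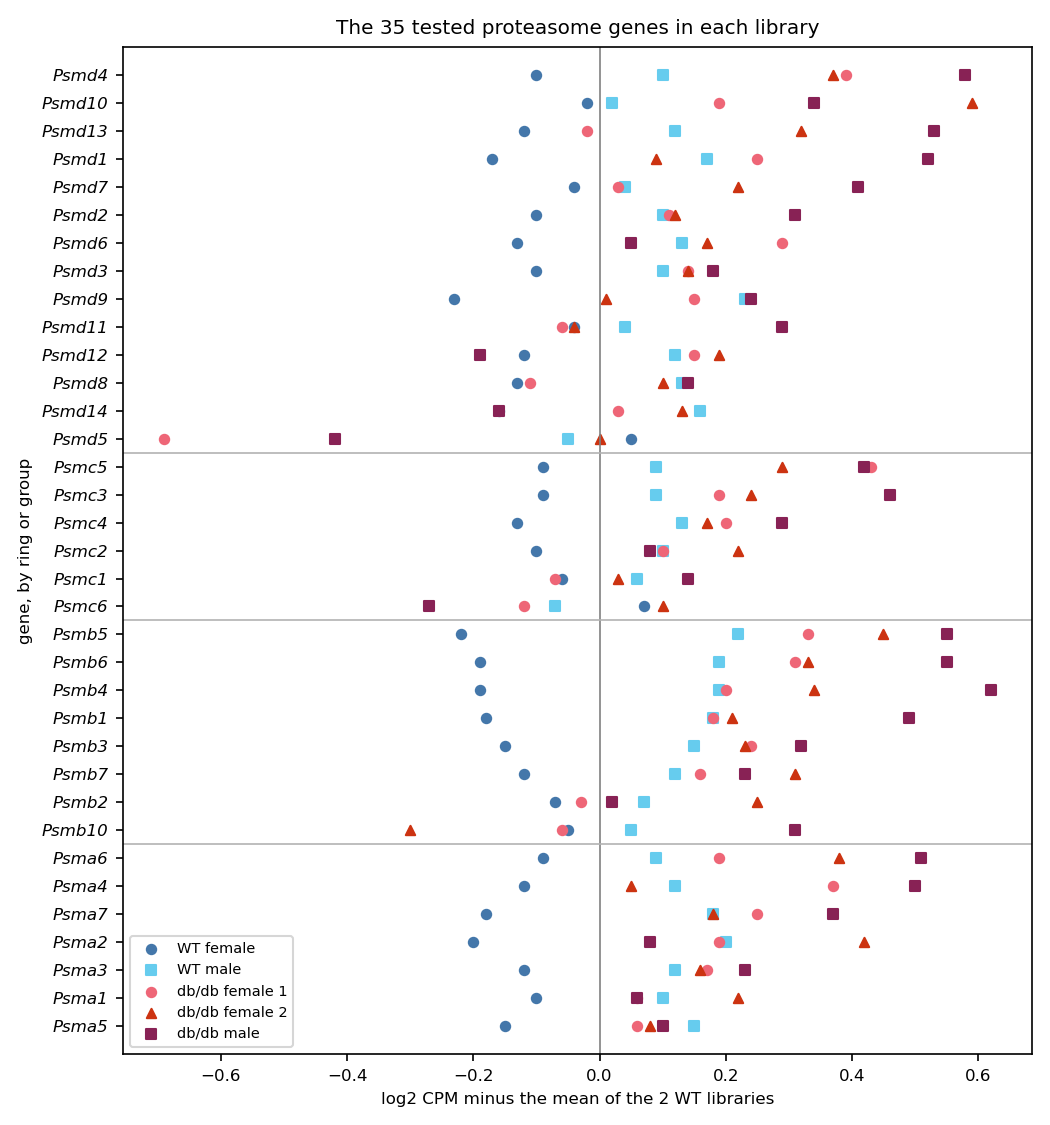
Log2 CPM of each of the 35 tested genes minus its mean over the WT libraries, one point per library, sorted within the 4 groups by fold change. The WT female lies below the WT male in 33 of 35 genes, and the male db/db library has both high values, such as Psmb4 at 0.62, and low ones, such as Psmd5 at -0.42.

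The alpha ring shapes the gate of the core. Its highest fold change was that of Psma6 (chromosome 12, 55384222 to 55418459, GRCm38.p6 as deposited), with 101 CPM in the WT female, 115 CPM in the WT male, 123 and 140 CPM in the db/db females and 153 CPM in the db/db male. All db/db values lay above both WT values, with a log2 fold change of 0.36 (adjusted p = 0.345, SE 0.15). The lowest was Psma5 (chromosome 3, 108248909 to 108279952) with 48.3 and 59.6 CPM in the WT female and male, 56.1 and 56.7 CPM in the db/db females and 57.5 CPM in the db/db male. Here the WT male was the highest library of all, and the log2 fold change was 0.07 (adjusted p = 0.867, SE 0.14), with its sign turning when libraries were scaled by totals. Psma4 had a log2 fold change of 0.31 (edgeR adjusted p = 0.434, SE 0.16) with overlapping groups. Psma3 was the other alpha gene with every db/db library above WT, while Psma1, Psma2 and Psma7 overlapped.

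The beta ring holds the cutting sites, and 5 of its 8 genes had every db/db library above WT, where 15.1% of all genes did. Psmb5, the chymotrypsin-like subunit and main target of bortezomib (chromosome 14, 54614120 to 54617995), was at 126 CPM in the WT female and 170 CPM in the WT male, at 185 and 201 CPM in the db/db females and at 215 CPM in the db/db male. The gap between the WT libraries, 126 to 170 CPM, was wider than the step from the WT male to the lowest db/db library. Its log2 fold change was 0.43 (edgeR adjusted p = 0.299, SE 0.16).

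Psmb6, the caspase-like subunit (chromosome 11, 70525357 to 70527858), followed the same order of libraries. It had 157 and 204 CPM in the WT female and male, 221 and 225 CPM in the db/db females and 263 CPM in the db/db male, with a log2 fold change of 0.39 (adjusted p = 0.349, SE 0.16). Psmb7, the trypsin-like subunit (chromosome 2, 38588046 to 38643952), had 135 and 159 CPM in the WT libraries, 163 and 181 CPM in the db/db females and 171 CPM in the db/db male. Its groups did not overlap, but the WT male and the lowest db/db library were close, and the log2 fold change was 0.23 (adjusted p = 0.513, SE 0.14). The interval of Psmb7 ran from -0.08 to 0.54 and so held both no change and a change as large as that of Psmb5. Among the non-catalytic beta subunits Psmb4 had a log2 fold change of 0.38 (edgeR adjusted p = 0.382, SE 0.17) and Psmb1 of 0.29 (adjusted p = 0.474, SE 0.16).

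Psmb10, which replaces Psmb7 in the immunoproteasome (chromosome 8, 105932006 to 105938454), was the exception in the ring. It had 70.1 and 74.8 CPM in the WT female and male, 69.5 and 58.9 CPM in the db/db females and 89.6 CPM in the db/db male. The db/db libraries held both the lowest and the highest value, and the log2 fold change was 0.00 (adjusted p = 0.997, SE 0.18), or -0.19 with library totals. Its deposited locus overlaps the neighbouring gene Ctrl.

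In the ATPase ring Psmc5 (chromosome 11, 106256185 to 106263112) had 101 and 114 CPM in the WT libraries, 144 and 131 CPM in the db/db females and 143 CPM in the db/db male. The groups were apart, with a log2 fold change of 0.37 (adjusted p = 0.289, SE 0.14). Psmc6 (chromosome 14, 45329824 to 45349071) was the only ATPase gene with a negative value. It had 52.9 and 47.7 CPM in WT, 46.4 and 54.1 CPM in the db/db females and 41.7 CPM in the db/db male, with a log2 fold change of -0.09 (adjusted p = 0.852, SE 0.15) and overlapping groups. Psmc3 had a log2 fold change of 0.30 (edgeR adjusted p = 0.421, SE 0.15), and Psmc3, Psmc4 and Psmc5 were the ATPase genes whose groups did not overlap.

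Among the non-ATPase genes Psmd4, the ubiquitin receptor also known as Rpn10 (chromosome 3, 95027938 to 95042927), had the highest fold change of all 35 genes. It was at 118 and 137 CPM in the WT female and male, at 166 and 164 CPM in the db/db females and at 190 CPM in the db/db male. The groups were clearly apart, with a log2 fold change of 0.45 (adjusted p = 0.234, unadjusted p = 0.00997, SE 0.14, 95% interval 0.13 to 0.76). The deposited locus of Psmd4 was given on the strand opposite to the annotation and was longer than the RefSeq gene, from 95032688 to 95042614.

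Psmd5, a chaperone of ATPase ring assembly (chromosome 2, 34850155 to 34870962), had the lowest fold change. It was at 16 and 14.8 CPM in WT, at 9.48 and 15.4 CPM in the db/db females and at 11.5 CPM in the db/db male. One db/db female lay between the WT values, and the log2 fold change was -0.34 (adjusted p = 0.526, SE 0.22). Psmd10, the chaperone also known as gankyrin, had a log2 fold change of 0.39 (edgeR adjusted p = 0.481, SE 0.22) and overlaps Atg4a on the genome. Psmd1, the large scaffold of the base, had 0.29 (adjusted p = 0.492, SE 0.17) and overlaps Htr2b. Among non-ATPase genes Psmd2, Psmd3, Psmd4 and Psmd10 had groups that did not overlap. The remaining non-ATPase genes, Psmd6, Psmd7, Psmd8, Psmd9, Psmd11, Psmd12, Psmd13 and Psmd14, overlapped between groups.

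**Figure D3:**
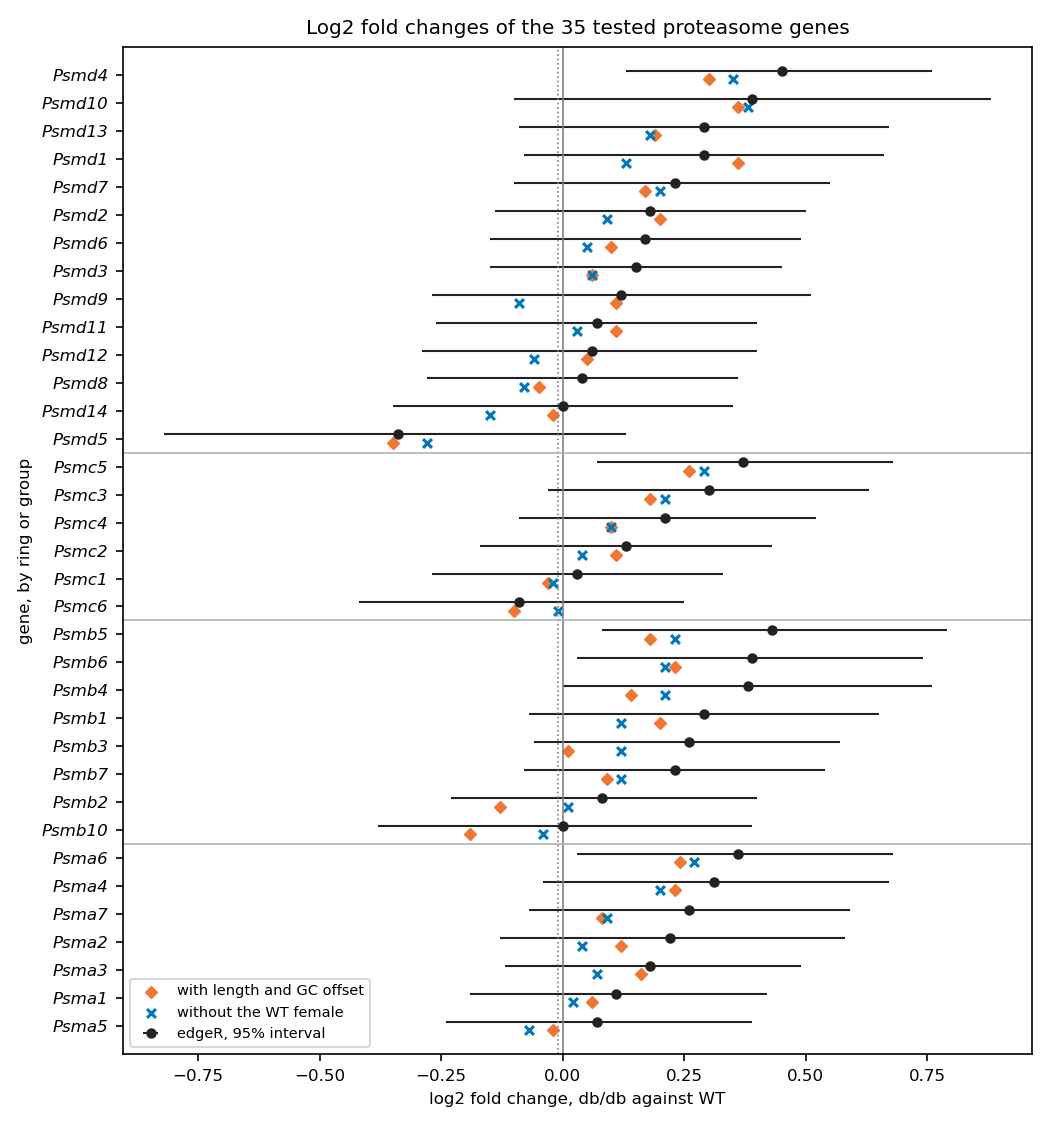
Log2 fold change of db/db against WT for the 35 tested genes with its 95% interval (black), with an offset for length and GC content (orange) and without the WT female (blue); the dotted line is the median of all tested genes. Psmd4 lies highest at 0.45 and Psmd5 lowest at -0.34, and most points move towards 0 under the offset or without the WT female. When libraries were scaled by their totals, 19 in place of 33 values were positive.

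The size of the lean depended on which WT library was kept. The WT male exceeded the WT female in 33 of 35 genes, against 50.4% of all tested genes, so the WT libraries differed from each other in the direction in which db/db differed from WT. As a median over the 35 genes, the deviation from the WT mean ran from -0.12 (WT female) to 0.12 (WT male), and it was 0.16, 0.19 and 0.29 in the db/db females and male. The median log2 fold change was 0.089 without the WT female and 0.35 without the WT male. With the db/db male left out as well as the female WT library it was 0.048, against 0.00 for all genes. That fit set the WT male against the db/db females, so genotype and sex cannot be told apart in it. Within females alone, with the WT female as the only WT library, the median was 0.30. Without the WT female 0 of 35 genes were called, against 0.199% of all genes, and 26 of 35 were positive, against 51.7% of all genes. The WT female stood apart in several marker lists. Its erythrocyte sum, over 3 of 3 genes, was 7430 TPM against 12000 to 17900 TPM in the other libraries. Its sum of 4 of 4 fat-cell genes was 6.73 TPM against 0.52 to 1.75 TPM, but Cfd alone gave 6.09 TPM of it. Adipoq was at 0.54 TPM there, against 0.57, 0.55 and 0.99 TPM in db/db, and Plin1 was at 0. Its sum of 4 of 4 smooth muscle and pericyte genes was 415 TPM against 230 to 315 TPM. Acta2, Rgs5 and Pdgfrb were highest in the WT female, but Myh11 was higher in db/db female 2 and the db/db male. The part of these cells in the lean was not tested.

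Sex was the second factor of the design. In a model with genotype and sex, the males had the higher value in 31 of 35 genes, against 48.6% of all genes. The median log2 difference was 0.17, and 0 of 35 were called (1.4% of all genes). At an unadjusted p under 0.05 in edgeR there were 9, and the share of all genes at that threshold is not given here. With sex in the model, 4 genes passed the test of genotype and rose in db/db: Psmb5 by 0.49 (adjusted p = 0.022), Psmd4 by 0.48 (adjusted p = 0.0169), Psmb4 by 0.45 (adjusted p = 0.0257) and Psmb6 by 0.44 (adjusted p = 0.0255) on the log2 scale, where 4.62% of all genes were called higher. The adjusted p-values are those of edgeR, and the other 31 tested genes did not pass. In females alone, with 1 WT library, Psmb5, Psmb6, Psmb4, Psmd4, Psmc5 and Psma2 were called higher, 6 of 35 genes against 5.07% of all genes. The spread there came from the db/db females only. The difference between genotypes was not shown to depend on sex: the interaction was called in 0 of 35 genes, against 1.16% of all genes, with a median of -0.12. Psma2 and Psmd12 had an unadjusted p under 0.05 for it in edgeR, again without a share of all genes to set beside them. This model had 1 residual degree of freedom.

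Proteasome transcripts are short. The median length over the 35 genes was 1350 bases against 2771 bases over all tested genes, with 895 bases in the structural core genes and 1479 bases in the structural regulatory genes. Over the 31 structural genes the log2 fold change had a Spearman correlation of -0.40 with length and of 0.40 with GC content, and over all tested genes of -0.31 and 0.22. These are descriptions across genes that share the same 5 libraries. In the db/db male the deviations spread most, with an SD of 0.24 over the 31 genes against 0.15 and 0.12 in the db/db females, and their correlation with GC content was 0.49.

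With an offset that removed each library's trend with length and GC content, the median log2 fold change was 0.11, 27 of 35 genes were positive, against 49% of all genes, and 0 were called, against 1.18% of all genes. The median deviations were then -0.05 and 0.05 in the WT female and male and 0.11, 0.09 and 0.08 in the db/db libraries. The beta ring, which had been at 0.41 in the db/db male, was at 0.04 there, while the non-ATPase group was at 0.27 without the offset and 0.29 with it. With the offset and sex together Psmd1 alone was called, with a log2 fold change of 0.43 (adjusted p = 0.0449), where 2.07% of all genes were called higher.

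**Figure D4:**
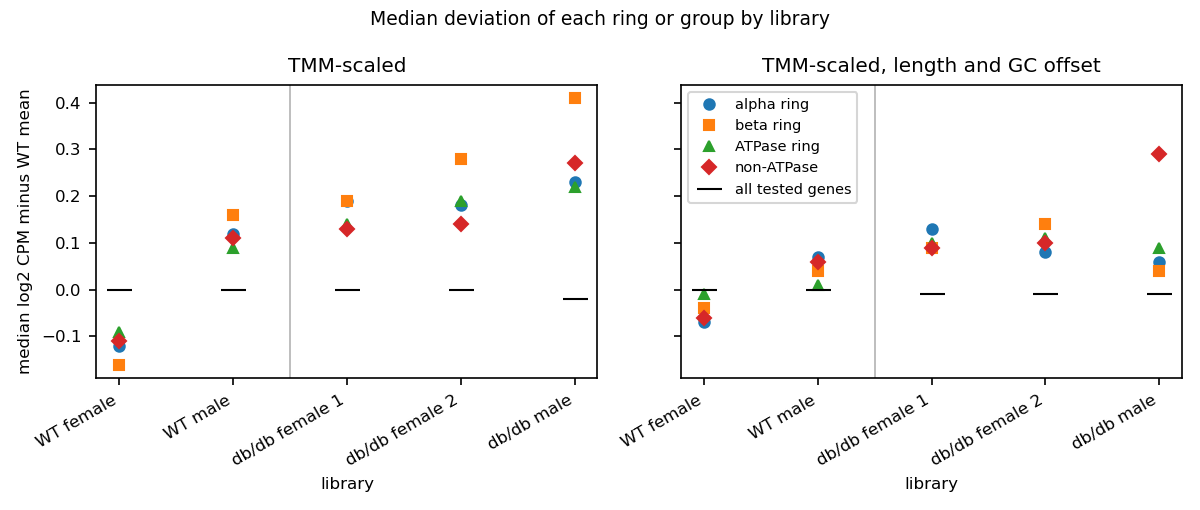
Median of log2 CPM minus the WT mean over the genes of each ring or group, per library, without (left) and with (right) the length and GC offset; black bars are the medians of all tested genes. On the left every group is lowest in the WT female and highest in the db/db male; on the right the beta ring of the db/db male is at 0.04 and the non-ATPase group at 0.29.

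The inducible subunits Psmb8 and Psmb9 take the places of Psmb5 and Psmb6 in the immunoproteasome, which immune cells carry and interferon induces elsewhere. For each 100 FPKM of Psmb5 there were 14.2 and 10.6 FPKM of Psmb8 in the WT female and male, 7.19 and 6.08 FPKM in the db/db females and 8.35 FPKM in the db/db male. The db/db ratios all lay below the WT ratios, with means of 7.2 ± 1.14 (SD, n = 3) against 12.4 ± 2.55 (SD, n = 2). The exact permutation test gave a two-sided p of 0.1, the smallest that its 10 splits allow. For each 100 FPKM of Psmb6 there were 14.6 and 7.58 FPKM of Psmb9 in WT and 7.12, 4.81 and 6.68 FPKM in the db/db females and male, again lower in every db/db library (exact permutation test, p = 0.1), although the WT male differed little from the first db/db female. Psmb10 per 100 FPKM of Psmb7 was at 37.9 and 34.6 FPKM in WT and at 31.3, 23.6 and 38.6 FPKM in db/db, with overlapping groups (exact permutation test, p = 0.5).

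Neither inducible gene was called on its own. Psmb8 had a log2 fold change of -0.33 (edgeR adjusted p = 0.475, SE 0.19) and Psmb9 of -0.32 (adjusted p = 0.593, SE 0.24). Psmb9 was at -0.02 without the WT female and at -0.57 without the WT male. In females alone, where 2.7% of all genes were called lower, Psmb9 fell by 0.70 on the log2 scale (edgeR, adjusted p = 0.0458). The only WT library in that comparison was the WT female, in which Psmb9 was at 17.8 CPM against 12.2 CPM in the WT male. Markers of immune cells are given beside these ratios. The summed level of 4 of 4 T-cell genes was 4.55 TPM in the WT female, which had the highest Psmb8 and Psmb9 ratios, and 0.7 to 1.15 TPM in the other libraries, with the lowest value in the WT male. That of 4 of 4 B-cell genes was 7.39 and 8.52 TPM in WT and 1.88 to 4.65 TPM in db/db. Counts of single T-cell markers were low. Cd3e, a chain of the T-cell receptor complex, had 8 and 2 counts in WT and 0, 1 and 0 in the db/db females and male. In the same order, Cd3d had 12 and 0 against 2, 1 and 6, and Cd4 had 20 and 6 against 8, 11 and 4. Cd8a had 21 and 4 against 4, 3 and 5. In Cd3d, Cd4 and Cd8a the WT male did not exceed every db/db library. The 6 of 6 macrophage genes summed to 128 to 149 TPM in all libraries, mostly from C1qa at 97.6 to 109.18 TPM. Adgre1 was lower in every db/db library, with 4.59 and 3.2 TPM in WT and 1.12, 2.56 and 1.18 TPM in db/db. Csf1r and Cd14 were also lower in every db/db library, while C1qa, Cd68 and Mrc1 overlapped between the groups. The part of these cells in the ratios was not tested.

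**Figure D5:**
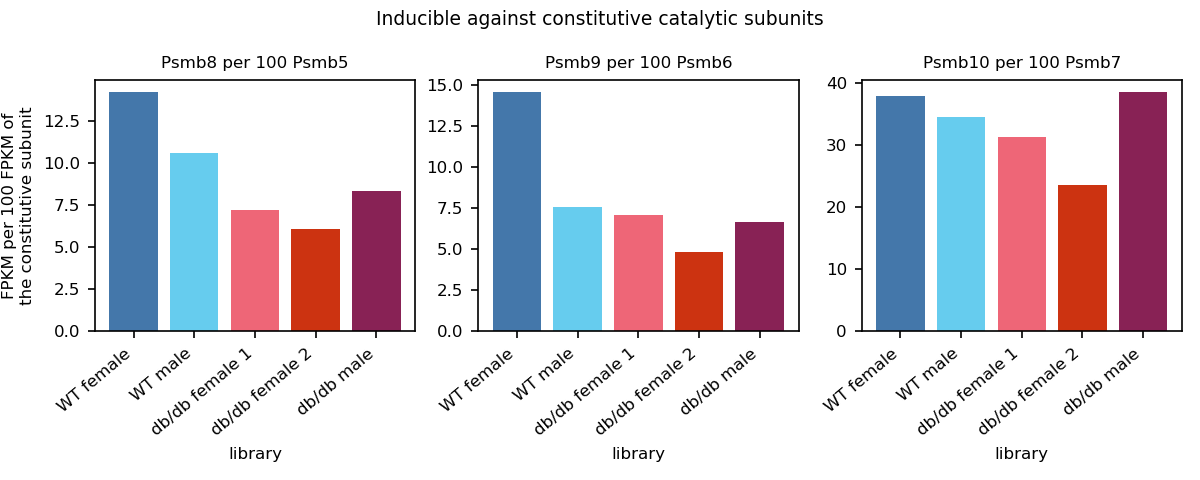
FPKM of each inducible catalytic subunit per 100 FPKM of its constitutive counterpart, one bar per library. Psmb8 per Psmb5 is 6.08 to 8.35 in db/db and 10.6 to 14.2 in WT, and Psmb10 per Psmb7 overlaps between the groups.

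Genes that build, help and control the proteasome were listed by function, and 0 genes of any list passed the test, whether by edgeR, by limma-voom or by DESeq2. An unadjusted p under 0.05 in edgeR was found for Pomp, Ddi2, Maff and Ubxn7, where 1623 of all 12540 tested genes reached this in either direction. Ddi2 stands in the lists of shuttle factors and of NRF1 control. Medians and signs are given under TMM scaling, where the median of all tested genes is -0.01. With library totals the medians of the NRF1 control, p97 and ubiquitin lists turned negative, at -0.17, -0.08 and -0.05. That of the deubiquitinases and ligases was -0.17. The number of genes above the median of all genes was the same as under TMM in every list. With the length and GC offset, under which the members were at 0.11, the differences between lists were smaller. The medians were then 0.14 for the assembly chaperones, 0.10 for the small partners and 0.04 for the activators and inhibitor. The NRF1 control, p97 and ubiquitin lists were at 0.11, 0.07 and 0.07, and the deubiquitinases and ligases at -0.02. Of the assembly chaperones 10 of 11 were tested, 8 were positive, and the median log2 fold change was 0.18. This list holds 3 of the 36 members (Psmd5, Psmd9 and Psmd10), so it is not independent of them. Pomp, which completes the maturation of the core, had the smallest p, with 96.1 and 134 CPM in the WT female and male, 165 and 145 CPM in the db/db females and 201 CPM in the db/db male. All db/db libraries exceeded WT, with a log2 fold change of 0.56 (adjusted p = 0.237, SE 0.18). With sex in the model Pomp was called and rose by 0.64 (adjusted p = 0.00502), and with the length and GC offset added to that model it was at 0.36 (adjusted p = 0.0917) and did not pass. Psmg4, a chaperone of alpha ring assembly, had 0.50 (adjusted p = 0.416, SE 0.25).

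The small partners of the complex outside the name rule were both positive. Sem1 had 0.38 (adjusted p = 0.413, SE 0.19), and Adrm1, a ubiquitin receptor, had 0.24 (adjusted p = 0.459, SE 0.13). Of the activators and the inhibitor, 4 of 5 were positive with a median of 0.22. Psme1, a subunit of the 11S cap, had 0.22 (adjusted p = 0.504, SE 0.14), and Psmf1, the inhibitor PI31, had 0.24 (adjusted p = 0.513, SE 0.15). Of the deubiquitinases and ligases bound to the proteasome, 3 of 5 were positive with a median of 0.00. The list includes the member Psmd14, itself at 0.00. Usp14, which trims ubiquitin chains on the particle, had -0.18 (adjusted p = 0.627, SE 0.15), or -0.02 without the WT male and -0.32 without the WT female, and the ligase Ube3a had 0.23 (adjusted p = 0.641, SE 0.20).

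Shuttle factors, which carry ubiquitinated proteins to the proteasome, did not share the direction. Only 1 of the 8 tested was positive, with a median of -0.12. With the length and GC offset 2 of 8 were positive, with a median of -0.07. Ddi2, the protease that cuts NRF1 into its active form, had a log2 fold change of -1.15 (edgeR adjusted p = 0.320, SE 0.45) at low expression. It was at 4.57 and 3.16 CPM in WT, at 2.55 and 1.86 CPM in the db/db females and at 0.675 CPM in the db/db male. The estimated counts of Ddi2 were not whole in any library and ran from 47.28 in the WT female down to 4.97 in the db/db male.

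Nfe2l1, the gene of NRF1 itself, was highly expressed and nearly level across libraries under TMM scaling. It had 382 and 370 CPM in the WT female and male, 375 and 366 CPM in the db/db females and 391 CPM in the db/db male, and its log2 fold change was 0.00 (adjusted p = 0.993, SE 0.14, 95% interval -0.30 to 0.31), or -0.18 with library totals, close to the -0.19 of all genes. Over the NRF1 control list 7 of 11 tested genes were positive with a median of 0.01. Maff, a small MAF partner, had the smallest p of the list with a log2 fold change of 0.67 (adjusted p = 0.211, SE 0.21). Of p97, which extracts ubiquitinated proteins from complexes and membranes, and its cofactors, 6 of 9 were positive with a median of 0.10; Ubxn7 had -0.64 (adjusted p = 0.273, SE 0.23) and Ubxn1 had 0.34 (adjusted p = 0.493, SE 0.20). Of the ubiquitin genes and E1 enzymes 3 of 6 were positive with a median of 0.13. Ubb, a polyubiquitin gene, had 0.30 (adjusted p = 0.450, SE 0.16).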

How the data were processed

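Poly-A selected heart RNA was sequenced in 5 libraries. The submitters' processing notes name HISAT, Bowtie2, DESeq2 and the build GRCm38.p6, with no role or version. The authors deposited 1 table. Per the file headers it holds read counts, FPKM and TPM for each library, and q-values, p-values and log2 fold changes that the authors computed. The deposited counts are estimated counts (expected counts), not normalized, and 91.4% were whole as printed; all 36 members had whole counts. The deposited FPKM are per length and library size. The deposited TPM were summed over marker lists. The deposited loci of 20 of 36 members equalled RefSeq's, 6 overlapped another coding gene, and 3 were on the strand opposite to GENCODE M21 (Psma7, Psmb7 and Psmd4); no source used here states whether the kit kept strand. The estimated counts of Psme2 were not whole in any library, from 580.55 in the WT female to 697.83 in db/db female 2. Whether it shares reads with a near-identical copy was not tested, and its values are uncertain.

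After 1 text line was dropped and 23 symbols turned into dates were restored, the counts were rounded and filtered (filterByExpr), which left 12540 genes. They were scaled by TMM and tested in R 4.3.3 by edgeR 4.0.16 (robust quasi-likelihood F test, Benjamini-Hochberg adjustment, threshold 0.05; 3 residual degrees of freedom for genotype). The limit allowed by a count of 0 was 3 counts, or 0.289 to 0.359 CPM, for counting error only. Log2 CPM used a prior count of 2. Alternatives were DESeq2 1.42.0, limma-voom (limma 3.58.1), other scalings and filters, a covariate (sex, or the title number), only the females, limma on FPKM with a pseudocount of 1 or 0.1 (over 1 FPKM in 2 libraries, or unfiltered), a loess offset (span 0.3, genes over a mean log2 CPM of 2) for gene length and GC content, and leaving out libraries. Length is that implied by deposited counts and FPKM; GC comes from the GENCODE M21 transcript nearest in length. The tests were tried on simulated data.

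Members, lists, alternatives and the naming rule were chosen with earlier results of these data known. The rule gives values in every library for the catalytic beta subunits, Psmb10 and the members with the highest and lowest fold change of each of the 4 groups, and names up to 2 genes with the smallest p of each other list, with Nfe2l1, Pomp, Psmb8 and Psmb9; fold changes of Psma4, Psmb1, Psmb4, Psmc3, Psmd1 and Psmd10 were added after their values were seen. Some genes that the rule would name are not reported here.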

Additional observations from a re-analysis of the deposited data

How the results depend on the processing

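The 2 WT libraries limit every comparison between genotypes, and the members' lean changed with which of them was left out. With 2 libraries, a low WT female and a high WT male cannot be told apart. Members were called in db/db against WT as 4 with a sex term, 6 in females alone and 1 with the offset and sex, and as 0 under the other alternatives run. Their median log2 fold change of 0.21 was 0.035 with library totals, 0.034 in limma on log2(FPKM + 1), 0.035 on log2(FPKM + 0.1) and 0.023 on log2(FPKM + 1) with no filter, settings that put the median of all genes at -0.19, -0.15, -0.17 and -0.09. Leaving out each library gave 0.089 to 0.35, lowest without the WT female. Leaving out the db/db male together with the female WT library gave 0.048, where genotype and sex cannot be told apart. Relative to the median of all genes it stayed positive in all 20 alternatives, from 0.046 to 0.36. The cause of these shifts was not tested.

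Over all genes the 129 calls became 241 with DESeq2, 256 with no filter, 832 with sex, 974 in females alone, 6 with log2(FPKM + 1) and no filter, 413 with the offset and sex, and 433 without the pair of female WT and male db/db. Leaving out each library gave 25 (without the WT female), 67 (WT male), 49 (db/db female 1), 135 (db/db female 2) and 244 (db/db male). For male against female 176 calls became 30 with the offset and 307 with DESeq2, and for the interaction 145 became 92 and 4. With the title number as a replicate block 80 genes were called, 0 of them members, and the members' median was 0.23. Same-numbered libraries had correlations of deviations of 0.152, -0.201 and -0.112. The deviations of the 2 WT libraries from their own mean are mirror images, so these values cannot decide whether the number pairs libraries.

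Of 678 pairs of a gene taken by the naming rule or added to it and an alternative, 625 kept direction and side of the threshold, 20 passed it and 33 turned sign, in 6 genes. Psma5 was -0.10 with library totals and in the 3 FPKM fits, -0.022 with the offset, -0.013 with offset and sex, -0.08 without that pair, and -0.069 to 0.23 leaving out each library. Psmb10 was -0.02 in limma-voom, -0.19 with library totals, -0.00017 with no filter, -0.00087 with the stricter filter, -0.046 under the replicate block, -0.13 in females, -0.19, -0.20 and -0.19 in the FPKM fits, -0.19 with the offset, -0.17 with offset and sex, -0.22 without the pair, and -0.18 to 0.13 leaving out each one. Nfe2l1 was -0.18 with library totals, -0.0052 under the replicate block, -0.044 in females, -0.26 in each FPKM fit and -0.023 to 0.029 leaving out each library. Leaving out single libraries or the pair gave -0.19 to 0.074 for Psmc6, -0.098 to 0.37 for Ube3a and -0.037 to 0.50 for Ubxn1, each turning sign without the pair.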
